A study of Mus musculus with 2 samples.

Results

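Mir126a, Mir126b, Mir143, Mir145a, Mir221 and Mir222 are the miRNA genes of 3 loci studied in blood vessels, and they were followed here through the small RNA of a growing calf muscle. They were chosen by gene name, as 6 of the 2202 miRNA genes in the deposited count tables, with the Ensembl identifiers translated through GENCODE release M21. The tissue was gastrocnemius from male mice of the F1 hybrid strain B6CASTF1/J, 10 days old, with no treatment named in the labels. The series holds 1 group of 2 libraries, so levels and their spread are described and no condition is compared. The labels number the libraries as biological replicates 1 and 2 from animals with different numbers, and list 1 donor entry for both. Any p-value below compares these 2 libraries with each other.

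A miRNA is cut from a hairpin precursor, and bases 2 to 8 of the mature strand, the seed, select the transcripts it represses. Mir126a lies within Egfl7, a gene of the endothelium, and its product is known to favour the response of endothelial cells to VEGF and to keep vessels intact by repressing Spred1. Mir143 and Mir145a are transcribed together and are known to hold smooth muscle cells in their contractile state. Mir221 and Mir222 are also transcribed together, and are known to repress the cell cycle inhibitor Cdkn1b and, in human endothelial cells, the receptor KIT.

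The loci differ in their arrangement (all coordinates are 1-based, mm10). Mir126a (ENSMUSG00000065540.1) covers chr2:26591357-26591429 on the plus strand, in an intron of 8 and an exon of 1 of the 9 Egfl7 transcripts that span it. Mir126b (ENSMUSG00000105799.1) covers chr2:26591363-26591420 on the minus strand, so that its whole length of 58 bases lies inside Mir126a. Mir221 (ENSMUSG00000065422.1, chrX:19146294-19146388) and Mir222 (ENSMUSG00000065471.1, chrX:19146893-19146971) lie on the minus strand with 504 bases between them, in no annotated host gene.

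The hairpins of Mir126a and Mir126b (RefSeq, GRCm38.p6) are shown because the counts of these genes depend on the strand of each read. The capitals mark the 19 bases, chr2:26591402-26591420, where the 3p arm of Mir126a and the 5p arm of Mir126b face each other as reverse complements.
Mir126a, plus strand: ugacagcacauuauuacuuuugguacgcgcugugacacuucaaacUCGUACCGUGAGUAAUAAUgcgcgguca
Mir126b, minus strand: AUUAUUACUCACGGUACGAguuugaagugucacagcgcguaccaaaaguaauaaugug

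The mature strands from the same RefSeq table, with the seed in capitals, show which members read the same target sites. Hairpins of 4 of the 6 members were found there, and the strands shown are limited to these, leaving out Mir143 and Mir145a.
mmu-miR-126a-3p: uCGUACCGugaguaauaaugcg
mmu-miR-126b-5p: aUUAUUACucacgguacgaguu
mmu-miR-126b-3p: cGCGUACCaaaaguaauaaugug
mmu-miR-221-3p: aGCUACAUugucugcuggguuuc
mmu-miR-222-3p: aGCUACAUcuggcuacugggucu
mmu-miR-221-5p: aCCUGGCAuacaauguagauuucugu
The 3p strands of Mir221 and Mir222 begin with the same 8 bases and hold the same base at 11 of 23 positions, counted from the 5′ end. Their common seed is found in 1 further mature miRNA of the table, mmu-miR-1928, whose gene Mir1928 had 0 counts in both libraries, which allows up to 0.75 CPM in replicate 1. No other mature strand among the 1738 in the table has the seed of mmu-miR-126a-3p, mmu-miR-126b-5p, mmu-miR-126b-3p or mmu-miR-221-5p. Mir126a and Mir126b, although they share a locus, therefore share no seed between the strands listed here. A 5p strand of Mir126a is not among them and was not compared.

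Mir143 (ENSMUSG00000065445.3, chr18:61649196-61649258) and Mir145a (ENSMUSG00000065592.2, chr18:61647825-61647894) lie on the minus strand with 1301 bases between them. No annotated gene other than these overlaps them, and the non-coding RNA gene Carmn, on the same strand, ends 366 bases before Mir143 begins.

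Levels are given as CPM, the counts of a gene per 1000000 counts assigned to miRNA genes. The libraries held 3999172 (replicate 1) and 5062714 (replicate 2) such counts, so that 1 count was worth 0.25 CPM in replicate 1 and 0.198 CPM in replicate 2. Between 47.0% and 48.0% of all reads matched several genomic places and were counted for no gene. No member had a hairpin stretch of 20 nt or longer in common with a miRNA gene elsewhere, the longest being 17 nt between Mir145a and its namesake Mir145b, which had 0 and 1 counts. The pair Mir126a and Mir126b was left out of that search, since both lie at 1 place.

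By the reads that matched 1 place, the 6 genes ran from among the most abundant miRNA genes to the limit of detection. Ranks and shares here leave out the reads that matched several places. Genes with near-identical copies elsewhere may therefore be counted too low, and how far this moves the ranks was not tested. Mir126a, the endothelial member, had 223090 counts in replicate 1 and 343884 in replicate 2, or 55784 and 67925 CPM. It stood at rank 6 in replicate 1 and at rank 4 in replicate 2. Its mean was 61854 ± 8585 CPM (SD, n = 2), above 98.1% of the 313 detected genes, which are those with at least 10 counts in both libraries. In whole muscle, a level cannot separate the number of cells of a type from the amount of RNA in each.

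Mir143, the leading smooth muscle member, had 95702 and 147444 counts in replicates 1 and 2, or 23930 and 29124 CPM. It stood at rank 11 in each library, with a mean of 26527 ± 3672 CPM. Mir145a, its neighbour, had 2563 and 2982 counts, or 641 and 589 CPM, and a mean of 615 ± 37 CPM. The members of 1 transcribed locus thus lay far apart, at ranks 11 and 87 by mean level.

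Mir221 had 534 and 614 counts in replicates 1 and 2, or 134 and 121 CPM, with a mean of 127 ± 8.7 CPM at rank 161. Mir222 had 43 and 51 counts, or 10.8 CPM (exact Poisson interval 7.78 to 14.5) and 10.1 CPM (7.50 to 13.2). The intervals of the libraries overlap for Mir222, whose mean was 10.4 ± 0.48 CPM at rank 255. Intervals here are at 95% and cover counting error only. Mir126b had 1 and 2 counts, or 0.25 and 0.395 CPM. Both are under the 3 counts that a count of 0 allows (0.75 CPM in replicate 1 and 0.593 CPM in replicate 2). Its exact Poisson intervals were 0.0063 to 1.39 CPM in replicate 1 and 0.048 to 1.43 CPM in replicate 2. So few reads do not settle whether Mir126b is expressed.

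Together the 6 genes took 8.05% of the assigned counts in replicate 1 and 9.78% in replicate 2 (mean 8.91% ± 1.2). Mir126a made up 69.4% ± 0.13 of that sum and Mir143 29.8% ± 0.043, so that the other members added little to it. The order Mir126a, Mir143, Mir145a, Mir221, Mir222, Mir126b was the same in both libraries. Per base of hairpin, mean levels ran from 847 CPM per base for Mir126a to 0.132 for Mir222 and 0.00556 for Mir126b. The hairpins are 58 to 95 bases long, a range too narrow to change the order. In CPM, the ranges of neighbouring members over the libraries did not overlap.

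**Figure D1:**
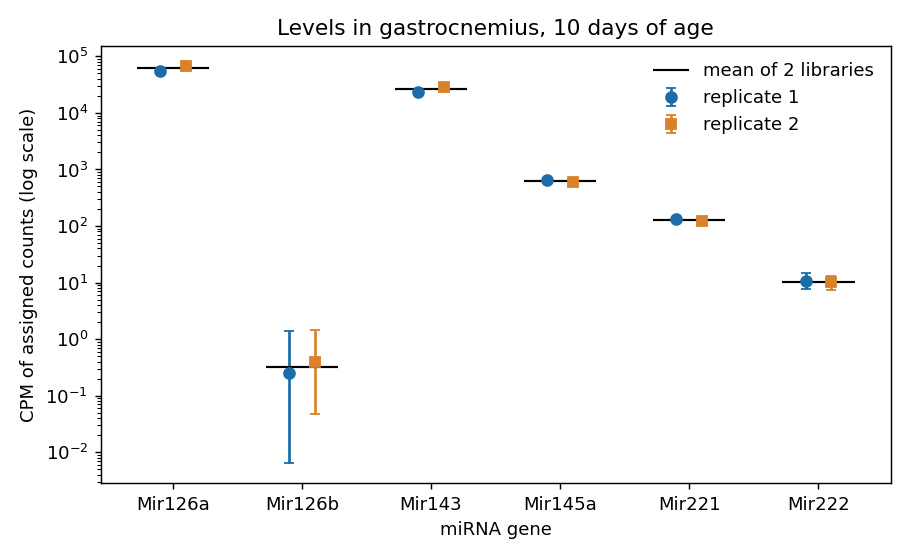
The 6 genes run along the horizontal axis and CPM of assigned counts along the log vertical axis; circles are replicate 1, squares replicate 2 with exact 95% Poisson intervals, and black lines the means of the 2 libraries. Mir126a and Mir143 lie between 23930 and 67925 CPM, while Mir126b lies at 0.25 and 0.395 CPM.

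The genes most like each member in level over the 2 libraries were found by the Euclidean distance in log2(CPM + 1). Mir126a was nearest to Mir411, an imprinted miRNA gene of chromosome 12, at a distance of 0.13, and then to Mirlet7i at 0.26. Mir143 was nearest to Mir23a at 0.23 and to Mir23b at 0.30. All 4 of these means differed from the member's mean by less than the larger SD. Mir145a was nearest to Mir195a at 0.016 and to the cartilage miRNA gene Mir140 at 0.055, and Mir221 to Mir5099 at 0.060 and Mir421 at 0.13, again within the larger SD. Mir222 was nearest to Mir3068 at 0.16 and Mir450-2 at 0.27, whose means differed from its own by more than the larger SD. The detected genes nearest to Mir126b, Mir6990 and Mir1969, were 1.9 and 2.0 away, since Mir126b lay below all of them. These distances rest on 2 libraries of 1 group and say nothing about conditions.

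**Figure D2:**
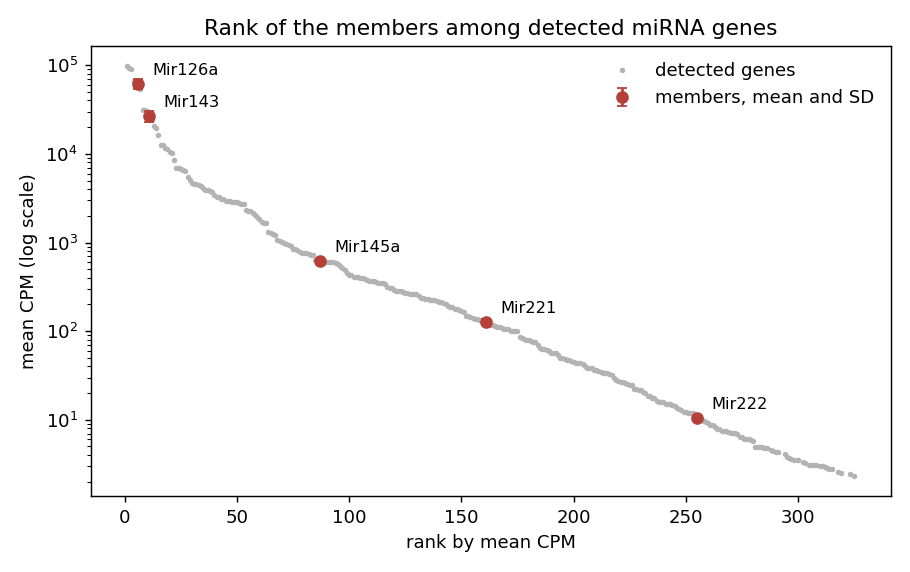
Detected miRNA genes are ordered by mean CPM (horizontal axis, rank) against mean CPM (log vertical axis); red points with SD bars are the 5 members that were detected. Mir126a and Mir143 sit at ranks 6 and 11, Mir145a at 87, Mir221 at 161 and Mir222 at 255.

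Within the loci, the balance of the genes was compared by the share of 1 partner in the counts of the pair, a quantity that needs no scaling between libraries. Mir145a made up 2.61% of the Mir143 and Mir145a counts in replicate 1 (exact binomial interval 2.51 to 2.71) and 1.98% in replicate 2 (1.91 to 2.05). These intervals do not overlap. Mir143 was 37.3 times Mir145a in replicate 1 and 49.4 times in replicate 2, a 1.32-fold change of the ratio between libraries.

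Mir222 made up 7.45% of the Mir221 and Mir222 counts in replicate 1 (5.45 to 9.91) and 7.67% in replicate 2 (5.76 to 9.96). Here the intervals overlap almost wholly, and Mir221 was 12.4 and 12.0 times Mir222. Mir126b made up 1 of 223091 counts of its pair in replicate 1 and 2 of 343886 in replicate 2, with upper limits of 0.0025% and 0.0021%.

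Across loci, Mir126a was 2.33 times Mir143 in replicate 1 and also in replicate 2. This ratio was picked after the values were seen. It differed by 1.001-fold between the libraries, less than any other of the 5 ratios computed. Mir145a was 4.80 and 4.86 times Mir221, while Mir126a was 418 and 560 times Mir221. The ratio of Mir145a to Mir221 differed by 1.01-fold between the libraries, that of Mir143 to Mir145a by 1.32-fold and that of Mir126a to Mir221 by 1.34-fold.

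The libraries were also tested against each other, on the same counts as those ratios. Genes averaging 10 counts or more were tested by an exact binomial test, two-sided, on TMM-scaled totals, with Benjamini-Hochberg adjustment over all 332 such genes. Of the 6 members, 5 reached that minimum, and 2 of them differed beyond counting error, both of them lower in replicate 1. Of all genes tested, 39.5% differed, 27.1% being lower and 12.3% higher in replicate 1, so the members' count is near the background and is no result about them. Mir126a was 1.28-fold lower in replicate 1 (log2 ratio -0.36, interval -0.36 to -0.35), and so was Mir143 (log2 ratio -0.35, interval -0.37 to -0.34). Their adjusted p-values in the exact test were too small for the computer's number format. Both calls were lost in the edgeR negative binomial exact test, which takes the spread between the libraries into account (biological coefficient of variation 0.14) but estimates it from the same pair. That test called 1.81% of all genes and none of the members, with unadjusted p = 0.215 for Mir126a and 0.217 for Mir143, and 23 genes had an unadjusted p below 0.05.

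Mir145a had a log2 ratio of 0.05 (interval -0.03 to 0.13, exact binomial adjusted p = 0.328). Mir221 had 0.07 (-0.10 to 0.24, adjusted p = 0.574 by the same exact test) and Mir222 had 0.02 (-0.60 to 0.64, adjusted p = 1.0 by the same exact test). For Mir222 the interval is too wide to separate it from Mir143 or Mir126a. With plain library totals in place of TMM, Mir145a passed as higher in replicate 1 (log2 ratio 0.12, exact binomial adjusted p = 0.00592). The share of calls higher in replicate 1 also rests on the scaling, with 41 of 131 calls higher by TMM and 79 of 141 by plain totals.

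Of the 21 genes whose mean level reached 10000 CPM, 17 were lower and 3 higher in replicate 1 by the exact binomial test with TMM, so a lower call was common at the level of Mir126a and Mir143. Among these 21 genes, only Mir322 (log2 ratio -0.40, interval -0.41 to -0.38) had a ratio as low as those of Mir126a and Mir143. Over all 332 genes, 13 others lay within 0.05 of the log2 ratio of Mir126a.

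**Figure D3:**
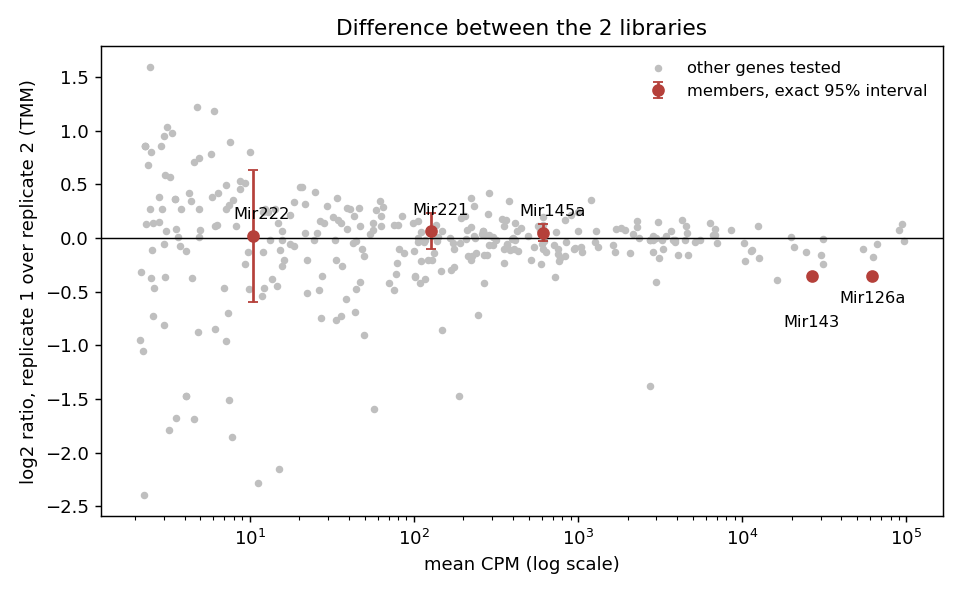
The log2 ratio of replicate 1 over replicate 2 (vertical axis, TMM scaling) is plotted against mean CPM (log horizontal axis) for the 332 genes tested; red points with exact 95% intervals are the 5 members that reached the count minimum. Mir126a and Mir143 lie at -0.36 and -0.35, and Mir145a, Mir221 and Mir222 between 0.02 and 0.07.

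Markers of blood cells were followed beside this difference, because Mir126a is also known from megakaryocytes and blood stem cells. Both erythroid genes were lower in replicate 1, with a summed level of 1680 CPM in replicate 1 and 4088 CPM in replicate 2. Mir451a, the main miRNA of red cells, was 2.61-fold lower there (log2 ratio -1.38) and Mir144 1.81-fold lower (log2 ratio -0.86). The 7 genes for leukocytes and platelets summed to 1720 and 1685 CPM in replicates 1 and 2. Of 6 tested, 2 were lower in replicate 1 and 4 did not pass, where 27.1% of all genes tested were lower. The lower ones were Mir142, known from blood cells (log2 ratio -0.34, exact binomial adjusted p = 0.00752), and Mir155 (-0.21). Mir342, which led this list by level, had a log2 ratio of -0.04 and did not pass. Mir146 (0.07) and Mir150 (0.05) did not pass either. Nor did Mir223, abundant in platelets and neutrophils, with a log2 ratio of 0.04 at 26.5 and 24.5 CPM. The part of blood in the difference of Mir126a was not tested.

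Other miRNAs known from vessels went both ways, with more of their calls lower than higher in replicate 1. Of 25 listed genes, 24 were found by symbol, 22 were detected and 22 tested. The symbol not found was Mir18a, and a gene named Mir18 on chromosome 14, at 279 CPM, was not taken in its place. Of the 22 tested, 2 were higher and 9 lower in replicate 1 and 11 did not pass. Over all genes tested, 12.3% were higher and 27.1% lower. The median log2 ratio of the list was -0.02, as over all genes. Mir126a exceeded every one of them in mean level. Only Mir23b, at 30107 ± 1276 CPM, exceeded Mir143, and that difference was less than the SD of Mir143. By mean level the list was led by Mir23b (log2 ratio -0.16), Mir23a (-0.13), Mir322 (-0.40) and Mir10b (-0.05), all lower in replicate 1. Next came Mir100 (-0.01), which did not pass, and Mir130a (0.06), which was higher. Mir10a, known to restrain inflammation in endothelium, was named after its values were seen. Its level was lower in replicate 1 (log2 ratio -0.41), at 2610 and 3310 CPM. Mir10b had a mean of 10240 ± 106 CPM. Mir210, induced by low oxygen, had 106 ± 12 CPM, and Mir218-1 and Mir218-2, hosted by genes of the Slit family of guidance proteins, had 1.02 ± 0.33 and 2.78 ± 0.31 CPM. The lists were chosen with earlier results of these libraries known, and hold genes that many cell types of muscle express.

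The Mir126 locus was the part of the set in which the count column decided the result. Each table counts reads on the sense strand, on the opposite strand and without regard to strand. Mir143, Mir145a, Mir221 and Mir222 had equal sense and unstranded counts and 0 opposite-strand reads in both libraries. Mir126a had 223090 and 343884 sense counts but 1 and 7 unstranded counts in replicates 1 and 2, and Mir126b had 0 in both. Without strand, the most abundant member would have fallen below the 10 counts that detection required.

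**Figure D4:**
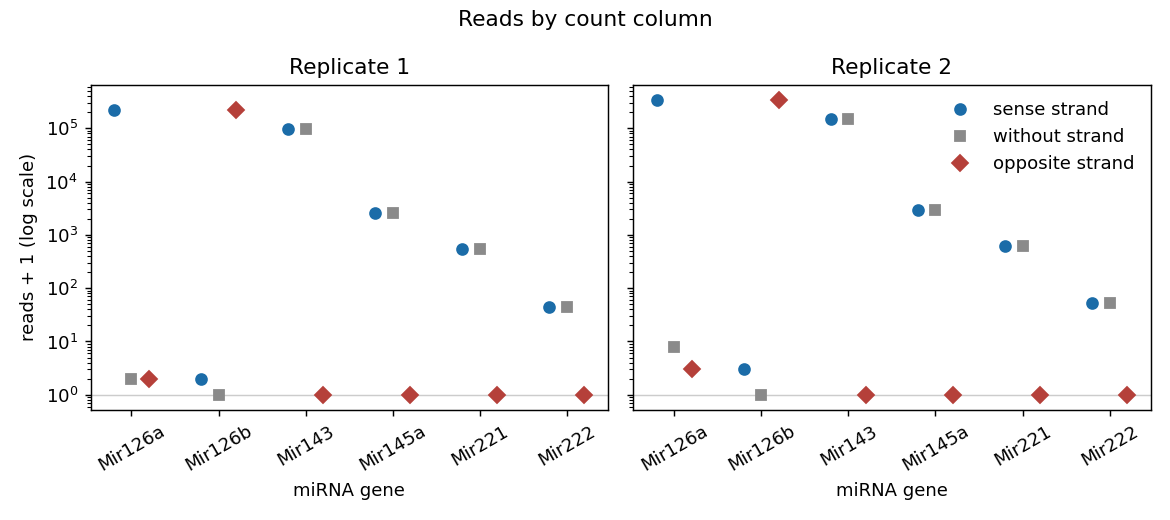
For each library, reads + 1 (log vertical axis) are shown for the 6 genes in the sense (circles), unstranded (squares) and opposite-strand (diamonds) columns. For Mir143, Mir145a, Mir221 and Mir222 circles and squares stand at the same height, while Mir126a falls to 1 and 7 unstranded reads and Mir126b is high on the opposite strand alone.

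In the unstranded column, reads at overlapping genes went to an ambiguous row of 712960 reads in replicate 1 and 925823 in replicate 2. The sense counts missing from the 32 opposite-strand pairs of miRNA genes account for all but 2 of these reads in replicate 1 and all but 4 in replicate 2. The Mir126a and Mir126b pair made up 31.3% of the row in replicate 1 (exact binomial interval 31.2 to 31.4) and 37.1% in replicate 2 (37.0 to 37.2). Only the pair of Mir378a and Gm25301 held more sense counts, 810204 over both libraries against 566977 for the Mir126 pair.

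In most of these pairs, as at Mir126, nearly all reads came from 1 strand. Of the 17 pairs with at least 1000 counts over both libraries, 10 had a smaller share of reads from the minor partner than the 0.529 per 100000 of Mir126b. The median over the 17 pairs was 0, and the highest was 1580 per 100000. In other pairs the minor strand was read. Mir3544, the minor partner of Mir337, had 51 and 84 counts in replicates 1 and 2. Mir3074-1, the minor partner of Mir24-1 in a pair below 1000 counts, had 47 and 62 counts against 117 and 105 for Mir24-1, or 32931 per 100000. Mir24-1 has a namesake elsewhere, Mir24-2, and reads matching several places were counted for no gene. Whether this lowered the Mir24-1 count, and so raised that share, was not tested.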

How the data were processed

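MicroRNA-seq libraries of 2 gastrocnemius samples were analysed. The authors deposited raw read counts per miRNA gene, 1 table per library, with assembly mm10 and GENCODE M21 per the metadata text beside the tables. Which aligner and counter were run is not given in the sources used here. The sense-strand column was used. Its total was 5.53 times that of the opposite strand, which held 712997 and 925866 reads in replicates 1 and 2. Sense reads at the opposite-strand pairs of miRNA genes that were lost from the unstranded column numbered 712958 and 925819. At Mir126 such reads were counted again in the opposite column of the partner gene, so the ratio is no measure of antisense reads. Summary rows (58.7% and 60.7% of reads in replicates 1 and 2) stayed out of totals. Counts are per hairpin, so arms cannot be told apart, and reads carry no molecular identifiers here. Ratios are replicate 1 over replicate 2, from a two-sided exact binomial test on TMM totals with Benjamini-Hochberg adjustment at 0.05. The test was tried on simulated Poisson counts only. These hold no spread between libraries beyond counting error, so they cannot show how the test behaves with the spread found here. Named genes are the members, the 2 nearest detected genes of each, and up to 6 leading genes of lists for other vascular miRNAs, erythroid cells, leukocytes and platelets, skeletal muscle and fibroblasts; other genes were named after their values were seen. Members and lists were chosen with earlier results of these data known. Alternatives were other scalings, count minimums, count columns, denominators and shared-stretch lengths, a negative binomial test, and each library alone. Software was Python 3.11.15 (pandas 2.3.3, numpy 2.4.6, scipy 1.17.1) and R 4.3.3 (edgeR 4.0.16, DESeq2 1.42.0).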

Additional observations from a re-analysis of the deposited data

Results flagged for a closer look

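Reads on the strand opposite to Mir126b numbered 223089 in replicate 1 and 343877 in replicate 2. They were marked because they lie in a column that the levels do not use and exceed the 3 reads that a count of 0 allows. The sense counts of Mir126a, which covers the same bases on the other strand, were 223090 and 343884. On the strand opposite to Mir126a there were 1 and 2 reads, the sense counts of Mir126b.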

How the results depend on the processing

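The unstranded column gave 0.998 CPM for Mir126a, 0 for Mir126b, 32381 for Mir143, 750 for Mir145a, 155 for Mir221 and 12.7 for Mir222. There the share of Mir126b in its pair was 0, and the log2 ratio of Mir126a had too few counts to test. With all reads as the denominator, the levels were 24865 CPM for Mir126a, 0.129 for Mir126b, 10664 for Mir143, 248 for Mir145a, 51.4 for Mir221 and 4.20 for Mir222. TMM-scaled totals kept all 6 levels within 1 SD. The factors of 2 libraries are reciprocal (1.025 and 0.976 in replicates 1 and 2), so the means could hardly move. Each library alone gave 55784 and 67925 CPM for Mir126a, and with 2 libraries such values lie within 1 SD of the mean by construction. The number of genes that differed between the libraries was 131, from 116 to 141 under other scalings, count minimums and the unstranded column, and 6 with the edgeR negative binomial exact test. Mir126a and Mir143 were called under each scaling and count minimum and lost under that test alone. With a minimum of 100 mean counts, Mir222 was not tested. At 18 or 22 nt, as at 20 nt, no member shared a hairpin stretch. No paired analysis was possible because the series holds 1 group. Depth limits Mir126b, at 1 and 2 counts, and Mir222, at 43 and 51 counts.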

Other observations

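Mir206, a miRNA of skeletal muscle, had 100599 and 87446 CPM in replicates 1 and 2. It made up nearly all of a list of 9 muscle genes that summed to 101176 and 88175 CPM. The others were low, with means of 247 CPM for Mir499, 212 for Mir486 and 102 for Mir1a-2. Mir208b had 43.5 CPM, Mir133b 38.8 and Mir133a-1 5.84. Mir1a-1 and Mir133a-2 had 2.61 and 1.67 CPM. Reads that matched several places are missing from these counts, so the list is only a partial check of the tissue label. Over all genes tested, 12.3% were higher and 27.1% lower in replicate 1. Of 8 muscle genes tested, 1 was higher and 4 lower. Mir206 was the higher one (log2 ratio 0.13). The lower ones were Mir499, in a slow myosin gene (log2 ratio -0.72), Mir208b (-0.69), Mir1a-2 (-0.36) and Mir486 (-0.17). Of 5 fibroblast genes tested, Mir214 was higher in replicate 1 (log2 ratio 0.36), opposite in direction to Mir126a and Mir143, and 4 did not pass. The fibroblast list summed to 4922 CPM in replicate 1 and 4433 CPM in replicate 2, led by Mir21a at 2722 ± 74 CPM.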
